A study of Mus musculus with 25 samples.

Results

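Gene expression in lumbar dorsal root ganglia (L3-L5) was compared between mice whose right knee had been sham-operated when they were 10 weeks old and untreated (naive) mice. Tissue was collected 16 weeks after surgery, when both groups were 26 weeks old. The comparison holds 3 sham and 3 naive arrays, 6 of the 25 arrays of the series, and was made across all 20260 named genes that passed the brightness limit. All mice were male C57BL/6. The other arrays come from naive and sham mice 4 weeks after surgery, from 1 sham and 3 naive samples at 8 weeks, and, at each time, from mice with DMM (destabilization of the medial meniscus), an operation that leads to osteoarthritis of the knee. The sham operation is the control of that model, and the naive mice show the ganglion without any operation. The labels give neither the number of animals behind an array nor a batch, and do not say that the replicates are separate animals. The p-values therefore measure the spread between these samples only, which may be technical.

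A dorsal root ganglion holds the cell bodies of sensory neurons that serve the limb and trunk, each wrapped by satellite glia, with Schwann cells around the axons, resident macrophages, vessels and a fibrous sheath that continues into the meninges. Injury of a peripheral nerve is known to switch on regeneration genes in these neurons and to expand macrophages around them. A sham operation leaves out the destabilizing step.

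The 17 measured general sensory neuron genes averaged between 14.53 and 14.69 (log2 value) on the 6 arrays, and the nociceptor sodium channel Scn10a lay between 16.22 and 16.67. The 3 measured of 12 listed T and NK cell markers averaged between 4.70 and 4.82, under the 5.12 to 5.31 of the array's negative control probes. Pairwise correlation across genes between the 6 arrays ran from 0.995 to 0.998. Of the genes tested, 4162 had a mean below the negative controls and are hardly measurable. Sham replicate 2 stood apart with high neutrophil and sheath transcripts, and the medians of the neutrophil, sheath, neuron and channel lists are also given without it. Naive replicate 2 read 10.71 for the IgM heavy chain gene Ighm, against 7.95 in each of the other naive arrays.

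A single gene passed the threshold of 0.05 on the adjusted p of limma (Benjamini-Hochberg over 20260 genes), which is 0.00494% of the genes tested. It is the predicted pseudogene Gm12481, which the rule for named genes leaves out and which is named here after its values were seen. It read 10.19, 10.07 and 10.08 in the sham arrays and 9.69, 9.71 and 9.60 in the naive arrays. Every sham array lay above every naive array. The gene rose by 0.45 ± 0.063 (log2, SE; 1.36-fold; adjusted p = 0.0179). The call was lost when only the 6 arrays were fitted (adjusted p = 0.261), under quantile normalization (0.102), with a common median (0.0741), and without sham replicate 1 (0.0568), 2 (0.0745) or 3 (0.0879) or naive replicate 1 (0.100). Among all its alternatives the adjusted p ran from 0.0107 to 0.261.

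Below that threshold the difference had a clear tilt as deposited. An unadjusted p under 0.05 was reached by 2180 genes (10.8%), of which 1729 (8.53%) were above naive in sham and 451 (2.23%) below. The sham mean was above the naive mean in 57.3% of genes, and the median difference over all genes was 0.02. The tilt depended on how the arrays are scaled. The share of genes above naive among those with p under 0.05 was 46.8% after quantile normalization and 49.3% after cyclic loess. Arrays of a group did not overlap with those of the other in 2472 genes (12.2%) with sham above and 1103 (5.44%) with sham below. The 13868 protein-coding genes had a median difference of 0.00, with 410 above and 359 below at p under 0.05. Fitted on their own with limma, 0 of them passed, 858 had an unadjusted p under 0.05, and the smallest adjusted p was 0.676.

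The genes that carried the tilt were mostly short nuclear RNAs and pseudogenes. Of the 100 genes of smallest p, 44 were pseudogenes, 14 snRNA genes, 9 snoRNA genes and 18 protein-coding genes, and 95 of the 100 were above naive. These classes come from RefSeq by symbol and were added after the values had been seen. Small nuclear RNAs (snRNAs) form the core of the spliceosome, and their loci exist in many near-identical copies, so that probe sets of one family can read the same RNA. The 689 snRNA genes tested have 617 distinct value profiles, and over all classes 351 genes share their values with another gene.

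The snRNA class had the highest median difference of the large classes, 0.41, with 606 of 689 genes above naive. At p under 0.05, 374 were above and 0 below, against 8.53% and 2.23% of all genes. The median level of the class was 7.13, 7.16 and 7.60 in the sham arrays and 6.93, 6.78 and 7.01 in the naive arrays. The groups did not overlap, and sham replicate 3 was highest. Without that array the median difference was 0.27, and without naive replicate 3 it was 0.51. Leaving out naive replicate 3 also raised the number of genes past the threshold from 1 to 76, of which 60 were snRNA genes. Quantile normalization and cyclic loess lowered the class median to 0.30 each and left 604 and 600 genes above naive.

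Small nucleolar RNAs (snoRNAs) guide the methylation and pseudouridylation of ribosomal and spliceosomal RNA. Their median difference was 0.23 over 626 genes with 530 distinct profiles, with 222 above and 5 below naive at p under 0.05. It was 0.15 under quantile normalization and 0.14 under loess. The 42 named C/D box snoRNAs, the methylation guides, had a median of 0.40, with 39 above naive and 21 above at p under 0.05. Snord58b read 11.72, 11.82 and 11.91 in sham against 10.97, 10.95 and 10.79 in naive. It differed by 0.92 ± 0.188 (1.89-fold; adjusted p = 0.165). A small p and groups without overlap were conditions for naming the single snoRNA genes given here. Snord55 read 14.49, 14.13 and 14.39 in sham against 13.23, 13.14 and 13.81 in naive, a difference of 0.95 ± 0.221 (1.93-fold; adjusted p = 0.216). It passed without naive replicate 3 (adjusted p = 0.0455). Snord35b read 8.06, 7.95 and 8.30 in sham against 6.85, 7.77 and 7.59 in naive, with naive replicate 1 lowest (0.70 ± 0.166; adjusted p = 0.219). The 5 small Cajal body RNAs, which guide the modification of snRNAs, were all above naive (median 0.42, and 0.26 without sham replicate 3). The 17 named H/ACA box snoRNAs, the pseudouridylation guides, had a median of 0.16. At p under 0.05, 2 of the 17 (11.8%) were above naive, against 8.53% of all genes. Without sham replicate 3 that median was -0.00063.

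The 62 rRNA genes, with 23 distinct profiles, were all above naive as deposited, with a median of 0.21, but the median was 0.05 under quantile normalization and under loess. The 1313 long noncoding RNAs (median 0.01) and 344 miRNA genes (median 0.02) were close to the protein-coding class, so the tilt was not shared by all noncoding RNA. In the snRNA and snoRNA genes together the median difference was 0.11 among genes with a mean under 6 and between 0.27 and 0.49 in all brighter bins. In protein-coding genes it stayed between -0.01 and 0.03 in every bin.

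**Figure D1:**
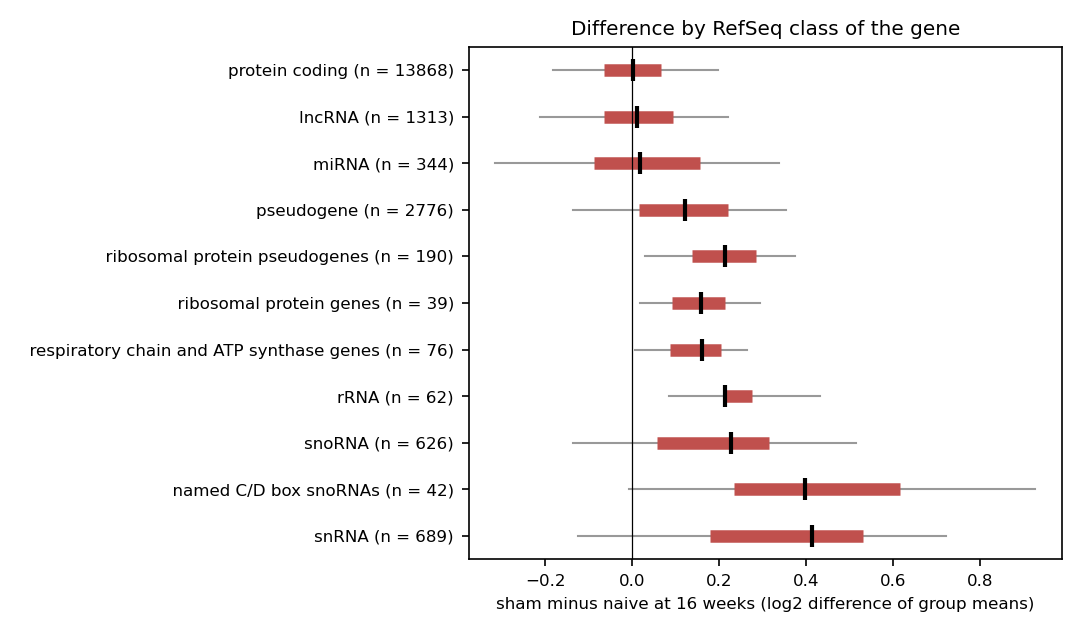
Difference between sham and naive arrays at 16 weeks (log2 difference of group means, x axis) for genes of each RefSeq class (y axis, with the number of genes). Black ticks mark the median, thick bars the range between the quartiles and thin lines the range from the 5th to the 95th percentile. Protein-coding genes centre on 0.00, while snRNA genes centre on 0.41 and named C/D box snoRNAs on 0.40.

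Ribosomal protein pseudogenes made up another group. These are intronless copies of ribosomal protein mRNAs, and probe sets on them can also bind the mRNA of the parent gene, so the source of the signal is uncertain. Of 190 named copies 183 were above naive, 91 above and 0 below at p under 0.05, against 8.53% and 2.23% of all genes. The copies had a median of 0.21 (0.12 under quantile normalization and 0.14 under loess). Their mean level was 10.80, 10.77 and 10.84 in sham and 10.57, 10.62 and 10.60 in naive. The sham and naive arrays did not overlap in that mean, and the SD within a group was 0.034 or less. Rpl34-ps2 read 14.10, 14.34 and 14.32 in sham and 13.91, 13.95 and 13.70 in naive (0.40 ± 0.089; adjusted p = 0.210). Rpl35a-ps5, Rpl31-ps9 and Rpsa-ps4 differed by 0.48, 0.36 and 0.29, each with an adjusted p of 0.210 and, as the naming rule requires, without overlap. Rpl31-ps25 differed by 0.50 ± 0.102 but lay below the negative controls in all 6 arrays.

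The coding ribosomal protein genes leaned the same way. Of 39 measured by a probe set of their own, 37 were above naive, with a median of 0.16 (0.10 under both other normalizations). Rpl19, a protein of the large subunit, read 12.92, 12.93 and 12.95 in sham and 12.59, 12.80 and 12.70 in naive (0.23 ± 0.071; adjusted p = 0.250). Rpl7, Rpl27 and Rps4x differed by 0.23, 0.21 and 0.19. In none of these 4 genes, named for their large differences, did the arrays of the groups overlap. Of the 39 genes 22 (56.4%) had all sham arrays above all naive arrays, against 12.2% of all genes.

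Genes of the mitochondrial respiratory chain and ATP synthase showed a similar lean. Of 76 such nuclear genes 72 were above naive, 33 above and 0 below at p under 0.05, against 8.53% and 2.23% of all genes. The 76 genes had a median of 0.16 (0.09 under quantile normalization, with 61 above naive, and 0.10 under loess). Ndufb4b, a copy of a complex I subunit gene, read 14.96, 14.90 and 15.13 in sham and 14.63, 14.68 and 14.75 in naive (0.31 ± 0.069; adjusted p = 0.210). Cox7b, a subunit of cytochrome c oxidase, read 12.49, 12.50 and 12.54 in sham and 12.26, 12.25 and 12.24 in naive (0.26 ± 0.089; adjusted p = 0.304). The spread within each group of Cox7b was far smaller than the gap between them. Ndufa4 and Uqcrb differed by 0.27 and 0.26, and the ATP synthase pseudogene Atp5l-ps1 by 0.49 ± 0.114 (adjusted p = 0.214). Ssb, the La protein that binds the 3' ends of new small RNA transcripts, read 12.98, 12.92 and 12.89 in sham and 12.67, 12.74 and 12.67 in naive (0.24 ± 0.054; 1.18-fold; adjusted p = 0.210).

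**Figure D2:**
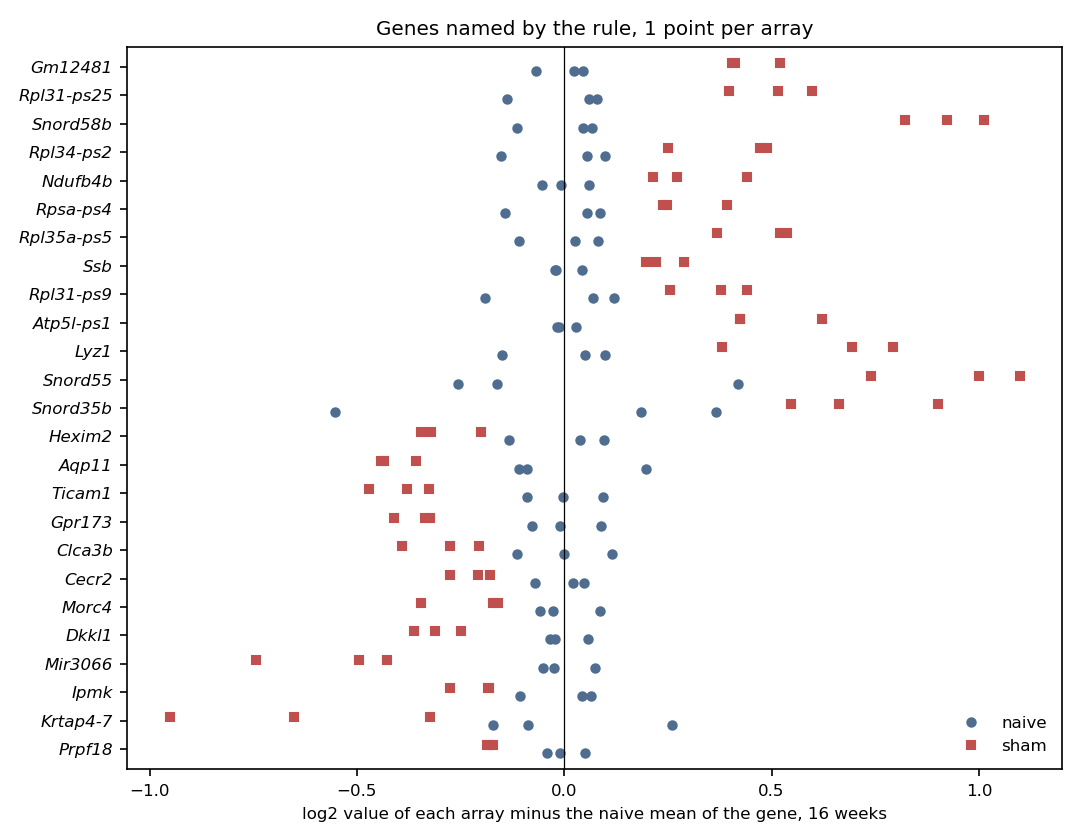
Log2 value of each array minus the naive mean of the gene at 16 weeks (x axis), for Gm12481, the 12 named genes above naive and the 12 below naive of smallest p without overlap (y axis). Red squares are sham and blue circles naive arrays. In each row the groups separate, which was required of the 12 genes each way. Snord58b and Snord55 show the widest differences of group means, 0.92 and 0.95.

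The 12 named genes of smallest p below naive had smaller gaps, and none passed (adjusted p from 0.210 to 0.251). Hexim2, an inhibitor of the elongation factor P-TEFb, read 6.11, 5.99 and 5.96 in sham and 6.18, 6.41 and 6.35 in naive (-0.29 ± 0.063). Aqp11, an intracellular aquaporin, read 7.60, 7.52 and 7.52 in sham and 7.87, 8.16 and 7.85 in naive (-0.41 ± 0.107). Ticam1, the TRIF adaptor of Toll-like receptors 3 and 4, read 5.93, 5.87 and 5.78 in sham and 6.25, 6.16 and 6.35 in naive (-0.39 ± 0.105). The sham arrays of these genes lay close together, and lying below all naive arrays was a condition for being named. Gpr173, an orphan receptor of neural tissue, read 7.47, 7.38 and 7.45 in sham and 7.88, 7.78 and 7.71 in naive (-0.36 ± 0.097). Cecr2, Morc4, Ipmk and Prpf18 were below naive by 0.18 to 0.22. Clca3b, Dkkl1 and Krtap4-7 completed the group, all with means below the negative controls.

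Mir3066 was the 1 miRNA gene among them. Its 2 mature products, from RefSeq (GRCm38.p6, plus strand, chr12:17355404-17355425 and chr12:17355441-17355462), are shown with the seed, bases 2 to 8, in capitals, since the seed sets which targets a miRNA can pair with.
mmu-miR-3066-5p: uUGGUUGCuguagauuaaguag
mmu-miR-3066-3p: cACUUAAUagaccgcaaccugc
The probe set read 5.97, 5.72 and 6.04 in sham and 6.42, 6.44 and 6.54 in naive, a difference of -0.55 ± 0.163 (adjusted p = 0.238). The naive arrays were nearly equal, and lying below them in all sham arrays was a condition for naming the gene. The array value does not separate the mature products from the hairpin.

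Macrophage markers lay above naive throughout. All 19 measured genes of the list had a higher sham mean, under the deposited scaling, quantile normalization and loess alike. Their deposited median was 0.23 against 0.02 over all genes. Of the 19 genes 6 reached p under 0.05, all above naive, and none passed the adjusted threshold. Over all genes 8.53% reached p under 0.05 with sham above, and 5.55% of protein-coding genes did in either direction. The list averaged 6.78, 6.84 and 6.67 in sham and 6.57, 6.55 and 6.42 in naive, without overlap. Leaving out 1 array at a time gave medians between 0.16 and 0.28. Bulk tissue cannot tell more cells of a type from more RNA per cell, here or in the lists that follow.

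Lyz2, the lysozyme of macrophages and neutrophils, read 11.13, 11.82 and 11.34 in sham and 10.59, 10.80 and 10.37 in naive. It differed by 0.85 ± 0.210 (1.80-fold; adjusted p = 0.219), the largest gap of the list. Its neighbour Lyz1 read 7.44, 7.85 and 7.75 in sham and 7.11, 7.16 and 6.91 in naive (0.62 ± 0.145; 1.54-fold; adjusted p = 0.214). Both genes ordered the sham arrays alike, with replicate 2 highest and replicate 1 lowest. The 250 bases before their start sites are shown because the 2 genes lie next to each other and were both above naive. They come from RefSeq (GRCm38.p6, minus strand, chr10:117292869-117293118 for Lyz1 and chr10:117282273-117282522 for Lyz2). Capitals mark AGGAA or, on the other strand, TTCCT, core letters of the motif of ETS factors, a family that includes the myeloid factor PU.1.
Lyz1: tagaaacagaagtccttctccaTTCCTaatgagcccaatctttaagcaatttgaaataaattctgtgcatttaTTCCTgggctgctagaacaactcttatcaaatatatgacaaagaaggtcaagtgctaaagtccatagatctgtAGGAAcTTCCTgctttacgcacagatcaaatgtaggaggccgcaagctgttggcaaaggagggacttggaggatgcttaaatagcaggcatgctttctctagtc
Lyz2: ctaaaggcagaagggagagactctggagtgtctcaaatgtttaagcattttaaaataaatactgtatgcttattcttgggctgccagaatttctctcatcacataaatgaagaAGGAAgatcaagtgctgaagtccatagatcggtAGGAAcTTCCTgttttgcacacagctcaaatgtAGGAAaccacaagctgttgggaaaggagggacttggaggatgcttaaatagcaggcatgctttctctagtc
The 2 windows are 79.4% identical and hold 4 matches each. At least 1 match occurs in 60.3% of the 32851 windows of this length in the table and 4 or more in 2.72%. A match is a description of letters and not a binding site. As the genes are close copies, signal of one on the probe set of the other cannot be told apart.

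Other macrophage genes had smaller gaps. Mrc1, the mannose receptor of tissue macrophages, read 8.80, 8.87 and 8.65 in sham and 8.40, 8.56 and 8.26 in naive (0.37 ± 0.140; adjusted p = 0.329). C1qb, a chain of complement C1q, differed by 0.46 ± 0.236, and its sham replicate 3 (7.69) lay under naive replicate 1 (7.81). Laptm5, a lysosomal protein of blood cells, differed by 0.36 ± 0.150 without overlap. Csf1r, the receptor that macrophages need to survive, read 7.26, 7.36 and 7.28 in sham and 7.09, 7.16 and 6.91 in naive (0.24 ± 0.106; adjusted p = 0.417).

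Antigen presentation genes were above naive as well. Of 8 class II genes 7 had a higher sham mean, with a median of 0.32 (0.31 under quantile normalization and 0.30 under loess). The median was 0.19 without naive replicate 3 and 0.46 without naive replicate 1. H2-Ab1, a class II beta chain, read 10.41, 10.74 and 10.18 in sham and 10.08, 10.00 and 9.60 in naive (0.55 ± 0.222; adjusted p = 0.357). H2-Eb1 and H2-Aa differed by 0.48 and 0.47, both without overlap. The class II mean moved by 0.09 in the arrays numbered 1 and by 0.38 and 0.43 in those numbered 2 and 3. Class I genes had a median of 0.12 (8 of 10 above naive). B2m, their common light chain, read 16.87, 17.02 and 16.77 in sham and 16.72, 16.44 and 16.52 in naive (0.33 ± 0.215; adjusted p = 0.635). Interferon-stimulated genes had a median of 0.09, with 18 of 26 above naive, and 0.01 without sham replicate 1. Bst2, a membrane tether for enveloped virus, read 7.43, 7.33 and 7.16 in sham and 7.13, 6.84 and 6.63 in naive (0.44 ± 0.277; adjusted p = 0.618).

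Neutrophil and marrow genes varied mostly between sham arrays. S100a8, a calcium-binding alarmin stored in neutrophils, read 6.34, 10.27 and 8.93 in sham and 7.43, 6.39 and 7.19 in naive. Sham replicate 1 was the lowest of all 6, and replicates 2 and 3 the highest. The fitted difference was 1.51 ± 0.671 (2.85-fold; adjusted p = 0.423). S100a9, its partner, read 6.02, 10.09 and 9.02 in sham against 7.05, 6.57 and 7.02 in naive (1.50 ± 0.646; adjusted p = 0.402). Ngp and Ltf, granule proteins, followed the same order of sham arrays and differed by 1.02 and 0.58. All 9 genes measured had a higher sham mean, and the median was 0.55. It was 0.92 without sham replicate 1, when S100a9 and Ltf passed (adjusted p = 0.0373 and 0.0297), and 0.27 without sham replicate 2. The neutrophil list overlaps with the alarmin list through S100a8 and S100a9, and the 13 alarmins and pattern receptors had a median of 0.08. Clec7a, the beta-glucan receptor dectin-1, differed by 0.41 ± 0.168 there but lay below the negative controls. Elane and Mpo, markers of immature granulocytes, were under the brightness limit.

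Genes of fibroblasts and the meningeal sheath gave the largest difference of a single gene among the lists described, with a wide spread. Ptgds, the prostaglandin D synthase of the leptomeninges, read 12.44, 14.73 and 13.35 in sham and 7.74, 13.30 and 10.80 in naive. The groups overlapped, and the difference was 2.90 ± 1.82 (7.44-fold; adjusted p = 0.618). Slc6a20a, a proline transporter of the meninges, read 8.24, 10.57 and 8.76 in sham and 6.57, 8.66 and 7.35 in naive (1.66 ± 1.26; adjusted p = 0.689). In both genes replicate 2 was the highest and replicate 1 the lowest of its group, in sham and in naive alike. The list mean was 8.22, 8.93 and 8.34 in sham and 7.67, 8.39 and 7.71 in naive, so that arrays of equal number differed by 0.55, 0.55 and 0.63. A limma fit of the 6 arrays alone, with the replicate number as a block, was chosen after these values were seen. Its calls and the replicate order thus come from the same data. In it 3 genes passed the threshold, Slc6a20a (adjusted p = 0.0350), the sheath transporter Slc22a8 and the snRNA gene Gm22127, and Gm12481 did not (0.0589). Over all 25 arrays the blocked fit called 2 genes, Gm12481 (higher, adjusted p = 0.0265) and the predicted gene Gm15559 (lower).

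Within the sheath list 18 of 19 genes were above naive, with a median of 0.30 (0.25 under both other normalizations). Without the block 0 members reached p under 0.05, against 10.8% of all genes. The median was 0.22 without sham replicate 2 and 0.44 without naive replicate 2. Slc6a13, a GABA transporter of the meninges, differed by 0.88 ± 0.562 without overlap, and Aldh1a2, which makes retinoic acid there, by 0.84 ± 0.720. Of 29 collagen and matrix genes 26 were above naive. The median was 0.16, and it was 0.064 without naive replicate 3 and 0.24 without sham replicate 3. Fn1, fibronectin, read 10.89, 12.36 and 10.98 in sham and 9.61, 10.87 and 9.98 in naive (1.26 ± 0.877; adjusted p = 0.663). The amount of sheath left on a ganglion at dissection could not be told apart from the group, and its part in these values was not tested.

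**Figure D3:**
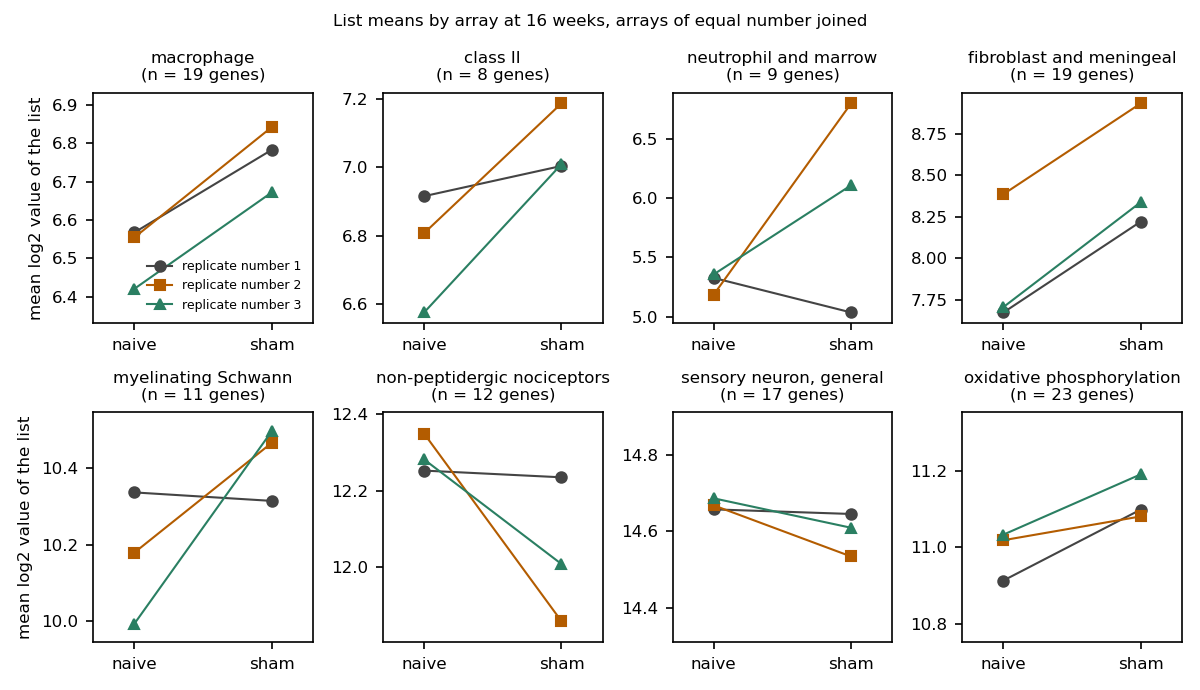
Mean log2 value of the measured genes of 8 lists on each naive and sham array at 16 weeks (y axis; scales differ between panels), with arrays of equal replicate number joined by a line. Macrophage, sheath and oxidative phosphorylation means are above naive in all 3 joined pairs, while the neutrophil mean is below naive in the pair numbered 1.

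Myelinating Schwann cell genes were above naive in all 11 members measured, with a median of 0.19, but 10 of 11 and a median of 0.10 under the other normalizations. Without naive replicate 3 the median was 0.12. Mbp, myelin basic protein, read 11.24, 11.25 and 11.46 in sham and 11.15, 10.99 and 10.79 in naive (0.34 ± 0.170; adjusted p = 0.486). Drp2, of the dystroglycan complex of the myelin sheath, differed by 0.55 ± 0.255 without overlap. Pmp2, a fatty acid carrier of compact myelin, differed by 0.70 ± 0.427, with sham replicate 1 under naive replicate 1. The list mean moved by -0.02 in the arrays numbered 1 and by 0.29 and 0.50 in the others. Satellite glia genes centred on 0.03 as deposited and on -0.03 after quantile normalization. Fabp7, the fatty acid carrier of these glia, read 17.38, 17.26 and 17.10 in sham and 16.80, 16.93 and 16.84 in naive. Its sham arrays all lay above its naive arrays (0.39 ± 0.109; 1.31-fold; adjusted p = 0.219). Ptn, a secreted growth factor, read 12.70, 12.80 and 12.56 in sham and 12.29, 12.34 and 12.51 in naive (0.30 ± 0.161), also without overlap. Ednrb, an endothelin receptor, differed by 0.07 and the matrix gene Bcan by -0.07.

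Genes of non-peptidergic nociceptors, the neurons of superficial touch, itch and mechanical pain, were below naive in 11 of 12 members. The median was -0.21, and it was -0.31 under quantile normalization and -0.29 under loess with all 12 below. Without sham replicate 2 it was -0.14. Mrgprb4, an orphan receptor of fibres that respond to stroking, read 11.81, 11.16 and 11.04 in sham and 12.24, 12.30 and 11.96 in naive (-0.83 ± 0.386; adjusted p = 0.446). Lpar3, a receptor for lysophosphatidic acid, read 10.94, 10.78 and 10.89 in sham and 11.25, 11.38 and 11.58 in naive (-0.53 ± 0.236; adjusted p = 0.419). In both genes all sham arrays lay below all naive arrays. Gfra2, the neurturin receptor, read 15.73, 15.42 and 15.31 in sham and 15.89, 15.82 and 15.65 in naive and overlapped (-0.30 ± 0.154). Sst, the neuropeptide somatostatin, differed by -0.41 ± 0.355, with sham replicate 1 among the naive values. The list mean moved by -0.02, -0.49 and -0.27 in the arrays numbered 1, 2 and 3.

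The general sensory neuron genes had a median of -0.04, with 11 of 17 below naive as deposited. After quantile normalization and loess all 17 were below, with medians of -0.18 and -0.16. Without sham replicate 2 the deposited median was -0.0089. Prrxl1, a homeobox factor of nociceptive circuits, read 9.22, 8.84 and 8.92 in sham and 9.32, 9.29 and 9.37 in naive (-0.33 ± 0.115; adjusted p = 0.304). Syt1, the calcium sensor of synaptic vesicles, read 15.05, 14.79 and 14.81 in sham and 15.19, 15.14 and 15.12 in naive (-0.27 ± 0.128; adjusted p = 0.464). The structural genes Tubb3, Snap25 and Nefl differed by 0.04 to 0.05 as deposited. Peptidergic nociceptor genes had a median of -0.02, which was 0.093 without sham replicate 2, and Gal, a peptide that nerve injury induces, spread from 7.73 to 9.79 over the sham arrays. Touch and proprioceptive genes centred on 0.03, or -0.03 under both other normalizations, and on 0.071 without sham replicate 2. Pvalb, the calcium buffer of proprioceptors and also of skeletal muscle, read 9.16, 9.76 and 9.77 in sham and 8.84, 9.04 and 9.10 in naive (0.57 ± 0.306; adjusted p = 0.532). Nefh, the heavy neurofilament of large neurons, differed by 0.21, while Th, the enzyme that marks one class of touch fibres, differed by -0.33 and the mechanical channel Piezo2 by -0.18.

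Ion channel genes had medians slightly below 0. The medians were -0.05 for sodium channels (8 of 11 below), -0.04 for potassium and HCN channels (13 of 17), -0.10 for calcium channels (10 of 14) and -0.06 for TRP, acid, ATP and mechanical channels (10 of 17). In the same order they were -0.15, -0.11, -0.16 and -0.079 under quantile normalization. Without sham replicate 2 they were -0.036, -0.0081, -0.046 and 0.00. With each array left out in turn they ran from -0.090 to -0.032, from -0.12 to -0.0081, from -0.13 to -0.034 and from -0.14 to 0.00. Members at p under 0.05 were 0 of 11, 2 of 17, 1 of 14 and 1 of 17, all of them below naive. Over all genes 2.23% were below naive at that p, and 10.8% reached it in either direction. Kcnk18, the TRESK leak channel of nociceptors, read 6.25, 6.46 and 6.52 in sham and 6.66, 6.66 and 6.80 in naive (-0.30 ± 0.117; adjusted p = 0.346). Cacna1c, the L-type channel pore, read 10.54, 10.40 and 10.55 in sham and 10.98, 10.79 and 10.67 in naive (-0.32 ± 0.137; adjusted p = 0.400). Neither gene overlapped between the groups. Hcn3 and Trpc5 differed by -0.29 and -0.38, also without overlap, and the nociceptor channel Scn11a by -0.26 ± 0.151. These genes were named for their large differences. In the order of the lists above, 1 of 11, 3 of 17, 3 of 14 and 2 of 17 lay below naive without overlap. Over all genes 5.44% did. Above naive without overlap lay 1 sodium channel gene.

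Of the 12 genes chosen for pain and neuroimmune signalling 8 were measured, and none passed. Csf1r is given above. Ccr2, the receptor of inflammatory monocytes, read 5.80, 5.68 and 5.72 in sham and 5.56, 5.52 and 5.50 in naive (0.21 ± 0.158; adjusted p = 0.689). The Ccr2 values lay little above the negative control probes (5.12 to 5.31). The gene of its ligand, Ccl2, differed by 0.01 ± 0.195 as deposited, with the sign turned under quantile normalization and loess. Trpv1, the heat and capsaicin channel, read 11.84, 10.90 and 11.36 in sham and 11.62, 11.70 and 11.46 in naive (-0.23 ± 0.264). Scn10a differed by -0.21 ± 0.118, Tlr4 by 0.09, Csf1 by 0.07 and Tac1 by -0.02. Tnf was under the brightness limit, and Calca had no probe set with that symbol alone.

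Nerve injury genes did not stand apart at 16 weeks. Their median was 0.03 as deposited and -0.01 under quantile normalization. At p under 0.05 there were 0 of 18, against 10.8% of all genes and 5.55% of protein-coding genes. Atf3, the transcription factor that axon damage induces, read 7.04, 6.72 and 6.85 in sham and 6.67, 6.74 and 6.74 in naive (0.15 ± 0.482). Sprr1a, a growth cone protein of regenerating axons, read 5.69, 6.64 and 7.12 in sham and 5.32, 6.36 and 6.03 in naive. Clock genes centred on -0.01, with Arntl at 0.25 and Per2 at -0.28, and both overlapped. Among prostaglandin and bradykinin genes (median 0.01, -0.05 under the other normalizations) Alox5ap, the activator of leukotriene synthesis, read 6.53, 6.88 and 6.63 in sham and 6.25, 6.45 and 6.32 in naive (0.34 ± 0.131; adjusted p = 0.333). The other 20 lists, with 198 members, had medians between -0.13 and 0.18. Of the 198 members 4 reached p under 0.05, against 10.8% of all genes and 5.55% of protein-coding genes.

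The same contrast 4 weeks after surgery, on arrays that are not shared, ran the other way for much of this. There 67 genes passed (0.331%), 10 higher and 57 lower in sham, but 5 with the replicate block and 0 in limma on the 6 arrays compared alone (3478 at an unadjusted p under 0.05). As deposited, the sham mean was above naive in 36.1% of genes. This split is also tied to the scaling: 33 of 114 calls were higher under quantile normalization and 79 of 114 under loess. Across the 20260 genes, which are not independent, the differences at 16 and 4 weeks correlated at -0.32 (Pearson). The macrophage median was -0.55 at 4 weeks, with 0 of 19 genes above naive, against 0.23 at 16 weeks. At 4 weeks the list averaged 7.01, 7.33 and 7.07 in naive and 6.79, 6.50 and 6.57 in sham. At 16 weeks it averaged 6.57, 6.55 and 6.42 in naive and 6.78, 6.84 and 6.67 in sham. Between the times the naive level of this list thus differed more than the sham level. Class II genes were at -0.41, sheath genes at -0.54 and nerve injury genes at -0.57. The nerve injury list averaged 9.77, 9.61 and 9.76 in naive and 9.41, 8.70 and 8.88 in sham at 4 weeks. On the 6 arrays of 16 weeks it averaged between 8.04 and 8.19. Both groups were thus higher at 4 weeks, the unoperated mice most, and the reason was not tested. At 4 weeks the channel lists were above naive, with medians from 0.03 to 0.25.

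The change of the sham effect between the times was tested as an interaction. It passed in 424 genes (2.09%), 387 upward (1.91%) and 37 downward (0.183%), and in 349 with the replicate block. Under quantile normalization 206 of 366 calls were upward, under loess 148 of 429 and with a common median 290 of 301. Of the 424 genes 199, 183 and 299 were called there too. Of the upward calls 245 were pseudogenes, 94 protein-coding, 24 snoRNA and 3 snRNA genes. Of the 19 macrophage genes 10 were called, all upward. Lyz2 moved from -0.62 at 4 weeks to 0.85 at 16 weeks, a change of 1.46 (adjusted p = 0.0179). Mrc1 moved from -0.71 to 0.37, a change of 1.08 (adjusted p = 0.0111). Csf1r changed by 0.81 (adjusted p = 0.0117) and C1qb by 1.46 (adjusted p = 0.0306). No gene of the sheath, collagen and matrix, nerve injury, non-peptidergic or general neuron lists passed this test. Of 8 class II genes 1 passed, upward, and 1 potassium channel gene passed, downward. For the sheath and nerve injury lists the change between the times is thus a description of medians. The samples of each age form their own groups, so age, time after surgery and any difference in collection between the times cannot be told apart.

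**Figure D4:**
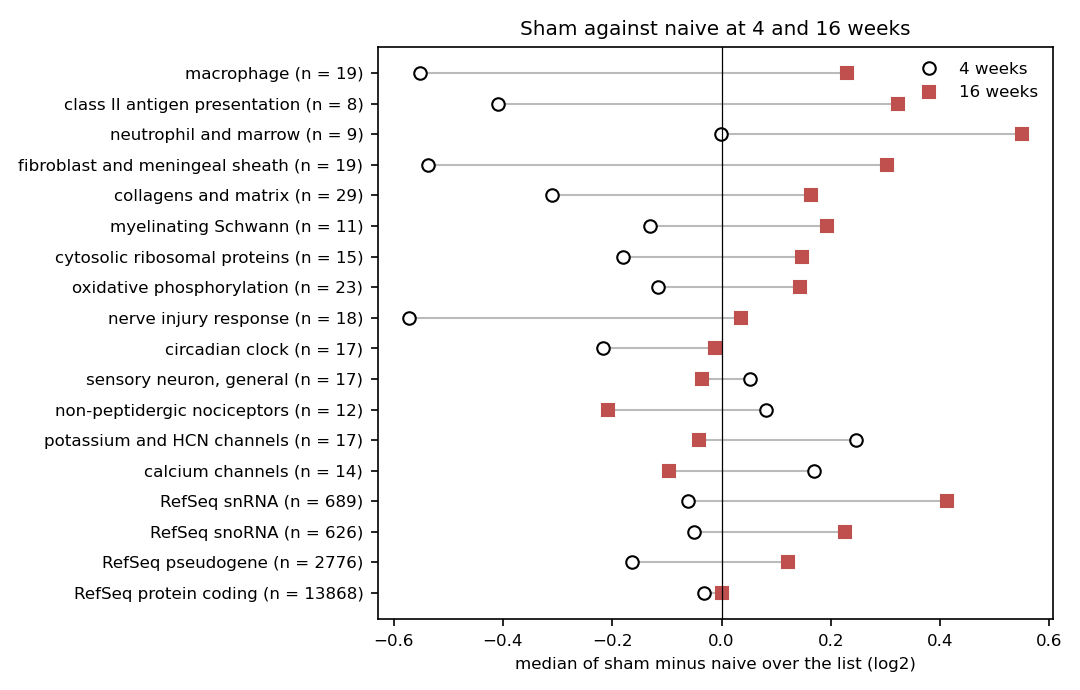
Median of the sham minus naive difference over gene lists and RefSeq classes (log2, x axis) at 4 weeks (open circles) and 16 weeks (red squares), with the number of genes in brackets. The macrophage median goes from -0.55 to 0.23 and the nerve injury median from -0.57 to 0.03, while protein-coding genes stay near 0. No single nerve injury gene passed the test of change between the times.

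The DMM arrays of 16 weeks give a further set of levels for the same genes, and share the naive arrays with the comparison above. Against the same naive arrays 3 genes passed for DMM (0.0148%). Lyz2 read 11.56, 11.82 and 11.87 in DMM, above all naive arrays and overlapping the sham arrays. Csf1r differed from naive by 0.24 in sham and 0.53 in DMM, and Fabp7 by 0.39 in sham and 0.74 in DMM. Mrgprb4 read 11.21, 12.26 and 11.68 in DMM, which spanned most of the range from sham to naive. Ptgds read 15.14, 15.64 and 9.58 in DMM, so that DMM replicate 3 fell among the low naive arrays. Snord58b read 11.72, 11.25 and 11.14 and Gm12481 10.00, 10.05 and 9.95 in DMM, all above the naive arrays, with DMM replicate 1 of Snord58b level with the lowest sham array. The snRNA median difference from naive was 0.41 in sham and 0.08 in DMM.

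**Figure D5:**
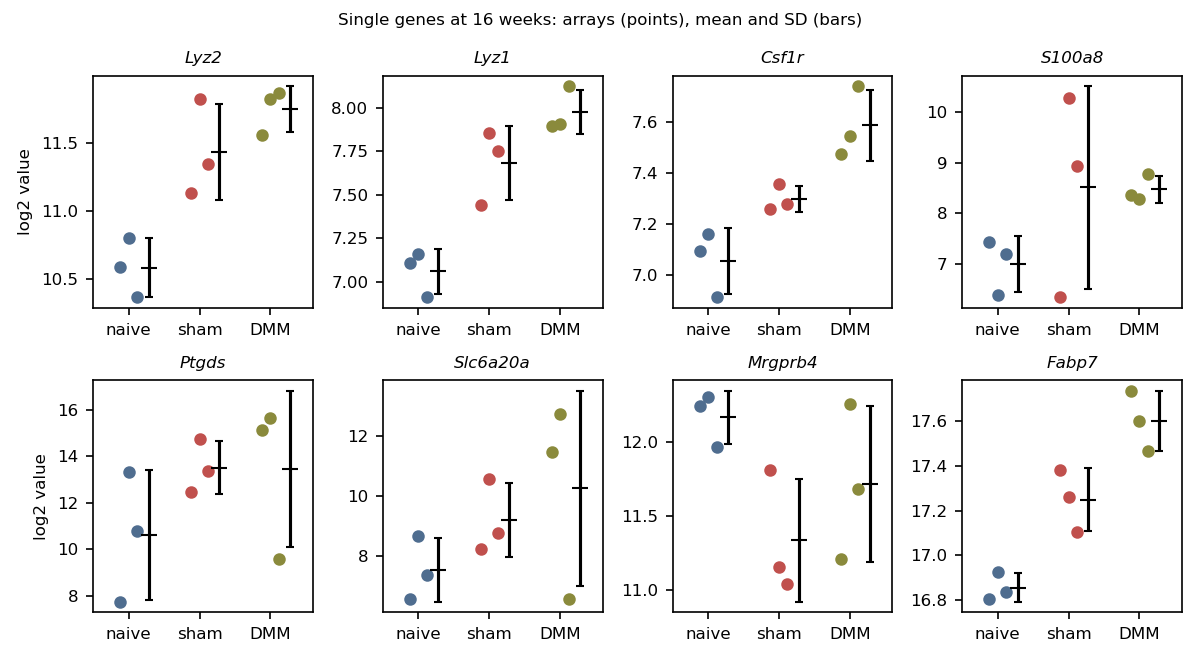
Log2 value of 8 genes in each naive (blue), sham (red) and DMM (green) array at 16 weeks (y axis; scales differ between panels), with the mean and SD of the 3 arrays as a black bar. Lyz2 and Lyz1 are higher in all sham and DMM arrays than in naive arrays, while S100a8 and Ptgds spread widely within groups.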

How the data were processed

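Total RNA of 25 samples was hybridised to microarrays after biotin labelling, per the labels' protocols. The deposited values are log2 intensities, 1 per probe set, a scale read from the values (2.23 to 19.70). How the authors summarised and normalized them, with which software and genome build, is not stated in any source used here. Of 65956 transcript probe sets 30604 carried 1 symbol in the platform annotation, 2146 several and 33206 none. Symbols were updated through Entrez in 827 cases, and the brightest probe set stood for a gene with several (355 genes), giving 30142 genes. Those with a mean above the 40th percentile (4.52) were tested.

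limma 3.58.1 (R 4.3.3) was fitted with 1 mean per group over all arrays (lmFit, eBayes, two-sided, 16 residual and 3.28 prior degrees of freedom, Benjamini-Hochberg over 20260 genes, threshold 0.05), after the procedure was tested on simulated data. Precision is limited by the number of arrays (median residual SD 0.12). Genes were named by rule: up to 12 each way of smallest p without overlap, up to 4 of largest difference per list described, and the 12 pain genes; the few others were chosen after their values were seen. Some members of the pain list are not reported here. The members and the 44 gene lists were chosen with earlier results of these data known. Sham and naive arrays of equal number correlated in their deviations from the group means at 0.11, 0.22 and 0.31, against -0.24 to -0.00 for unequal numbers. This measure comes from the values, since the labels state no pairing. Each group was centred on its own mean, so values for unequal numbers must fall where those for equal numbers rise. The ranges are thus not separate evidence, and whether the numbers pair the samples stays unknown. Blocked counts stand beside the result for the case that they do. Alternatives were other filters, normalizations, priors, array weights, a mean over probe sets, fewer arrays, and each array left out.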

Additional observations from a re-analysis of the deposited data

Results flagged for a closer look

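For 20 of the genes named here the sham effect differed between 16 and 4 weeks by the interaction test of limma (adjusted p from 0.00752 to 0.0481), 19 of them upward. Over all genes 2.09% passed. Most of the 20 were named for their difference at 16 weeks, which the interaction contains, so their number and direction are partly set by that choice. Among genes known from macrophages and other myeloid cells these were Lyz2 (change of 1.46), C1qb (1.46), Mrc1 (1.08) and Csf1r (0.81), measured in whole ganglia. Alox5ap (0.77), of the leukotriene pathway, and Lyz1 (1.04) were also among them. The signal of Lyz1 cannot be told apart from that of its close copy Lyz2. Ribosomal protein genes Rpl19 (0.41), Rpl27 (0.51) and Rps4x (0.38) and the copies Rpl31-ps25 (0.73), Rpl34-ps2 (0.83), Rpsa-ps4 (0.37), Rpl35a-ps5 (0.67) and Rpl31-ps9 (0.64) changed upward as well. So did Gm12481 (0.58), Snord58b (1.46), Ndufb4b (0.52), Ssb (0.51) and Atp5l-ps1 (0.82). The receptor gene Gpr173 changed downward (-0.57). Under quantile normalization 16 of the 20 passed and under cyclic loess 14, with 13 in both, and all 20 kept their direction. The 6 genes named first, from Lyz2 to Lyz1, are among those that passed under both, while Rpl19 passed under neither (adjusted p = 0.270 and 0.171).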

How the results depend on the processing

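The count of genes past the threshold of limma at 16 weeks, 1 as reported, was 0 under quantile normalization (1989 genes at an unadjusted p under 0.05), a common median (1964), a fit of the 6 arrays (2494) or protein-coding genes alone (858). It was 2 with the replicate block, 3 with the block on the 6 arrays and 8 with array weights. Leaving out 1 array gave 0 to 76, highest without naive replicate 3, with 4 without sham replicate 1 and 2 without naive replicate 2.

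The 67 calls at 4 weeks became 3 with no filter, 163 with the 60th percentile filter, 114 under quantile normalization, 114 under loess, 19 with a common median, 0 in a fit of the arrays compared (3478 genes at an unadjusted p under 0.05), 5 with the replicate block, 628 with array weights and 2 among protein-coding genes, and 0 to 76 with 1 array left out. The 424 changed effects became 677 with the stricter filter, 1312 with array weights and 15 among protein-coding genes, and 122 to 439 with 1 array left out. The causes were not tested.

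Of 2068 values of 116 named genes under these alternatives 12 turned their sign, none in a gene with a call. Ednrb was -0.041 under quantile normalization and -0.017 under loess, and ran from -0.0083 (without naive replicate 1) to 0.14 with 1 array left out. Ccl2 was -0.019 and -0.014 under the same normalizations and ran from -0.12 (without sham replicate 1) to 0.12. Without sham replicate 2 the sign turned in Trpv1 (range -0.46 to 0.0051), Thbs1 (-0.022 to 0.65), Ptgs2 (-0.011 to 0.25) and Tac1 (-0.13 to 0.11), and without naive replicate 3 in Csf1 (-0.0066 to 0.14). Of 737 list medians 38 moved by more than the spread between arrays, which is wide in some lists. In 14 lists or classes the median changed its sign under at least 1 alternative. Leaving out arrays of 4 weeks, protein-coding genes alone and the block on the 6 arrays were chosen after seeing the data. Genes near the negative control level are the least certain.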
